A study of Homo sapiens with 24 samples.

Results

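Heme is broken down in a short pathway of which 4 genes were followed here: the heme oxygenases HMOX1 and HMOX2 and the biliverdin reductases BLVRA and BLVRB. They were taken by symbol from a deposited count table of 27311 symbols. All 4 symbols were in the table, and 3 of the 4 passed the filter on low counts. HMOX1 did not pass: it had 0 counts in every library.

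Heme oxygenases open the heme ring and release iron, carbon monoxide and biliverdin. HMOX1 is the inducible enzyme, held down by the repressor BACH1 and switched on by NRF2, while HMOX2 is made constitutively. BLVRA reduces the main product, biliverdin IX alpha, to bilirubin. BLVRB, the second reductase, acts on biliverdin IX beta and, with NADPH, on flavins and other substrates, and it is an abundant protein of red cells.

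RNA was measured in K562, an established human erythroleukemia line that expresses erythroid genes, 48 hours after transfection with 1 siRNA per culture, by a 3' RNA-seq method (BRB-seq). There were 6 groups of 4 libraries. GATA1, the transcription factor that drives erythroid genes, was targeted by siGATA1-1 (Ambion Silencer Select s5593) at 25 nM or by siGATA1-2 (s5594) at 6.25 nM. The non-targeting siRNAs siNC-1 (4390844) and siNC-2 (4390847) were each used at 25 nM and at 6.25 nM. Every library came from K562 cells carrying an siRNA, and cells without one were not analysed here. Each GATA1 siRNA was used at 1 dose only, so its sequence and its dose cannot be told apart. The sources used here do not say whether the 4 replicates of a group were separate cultures, so the p-values measure the spread between libraries, which may be technical.

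Total counts ranged from 88290 to 473098 per library. All 18 genes on the list of K562 erythroid markers passed the filter. GATA1, the targeted gene, lay between 242 and 308 CPM (counts per 1000000 counts of the library, with library totals scaled by TMM) with siGATA1-1, and between 389 and 717 in the 8 control libraries of that dose. With siGATA1-2 it lay between 165 and 333 CPM, against 478 to 630 in its 8 controls, so the groups did not overlap at either dose. Levels are compared between groups for 1 gene at a time and not between genes.

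BLVRB was the only member called: it fell with both GATA1 siRNAs, to 63.2% of the control level with siGATA1-1 and to 56.2% with siGATA1-2. With each siRNA 1 of the 3 tested members was called at an adjusted p under 0.05 (edgeR's quasi-likelihood test, Benjamini-Hochberg adjusted over 6738 genes), where 0.727% of all tested genes were called with siGATA1-1 and 3.03% with siGATA1-2. BLVRA and HMOX2 were not called in any comparison. HMOX2 had at most 23 counts in a library. With siGATA1-1 its 95% interval (-1.86 to 0.29, log2 scale) included a fall as large as that of BLVRB. HMOX1 could not be tested. BLVRB is known to be high in erythroid cells, and the genes whose levels followed it most closely over the libraries included globin genes and the erythroid heme synthesis gene ALAS2.

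The sequences before the starts of the 2 reductase genes are shown because BLVRB was called with both siRNAs and BLVRA with neither. Each is the 250 bases before the gene's RefSeq start (RefSeq, GRCh38.p14, the table's build, while the authors' files name hg19), written 5′ to 3′ on the gene's strand. The BLVRB window is chr19:40465746-40465995 on the minus strand and the BLVRA window is chr7:43758430-43758679 on the plus strand. Capitals mark matches to CCNCNCCC, a letter pattern that includes the CACCC and GC boxes bound by Krüppel-like factors.
BLVRB: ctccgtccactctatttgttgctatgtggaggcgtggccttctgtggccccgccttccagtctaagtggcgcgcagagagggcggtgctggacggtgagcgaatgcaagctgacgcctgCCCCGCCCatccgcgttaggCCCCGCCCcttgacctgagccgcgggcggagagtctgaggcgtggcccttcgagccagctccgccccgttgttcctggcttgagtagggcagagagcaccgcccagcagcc
BLVRA: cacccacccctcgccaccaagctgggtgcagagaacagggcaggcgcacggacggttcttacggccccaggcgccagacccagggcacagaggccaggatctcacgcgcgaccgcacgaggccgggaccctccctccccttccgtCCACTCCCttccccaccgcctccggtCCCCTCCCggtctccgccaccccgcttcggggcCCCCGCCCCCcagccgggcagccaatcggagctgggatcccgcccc

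The windows were searched on both strands for 3 letter patterns. The GATA factor pattern had 4 forms: AGATAA, the same ending in G instead of A (AGATAG), the same starting with T instead of A (TGATAA), and the form with both replacements (TGATAG). It was found in neither window, and 22.3% of the 35116 RefSeq windows of this length hold it. The pattern CCNCNCCC was matched 2 times before BLVRB and 4 times before BLVRA, the last 2 of them overlapping, and 53.4% of all windows hold it. A pattern at the core of NRF2 and BACH1 sites, TGACNNNGC or TGAGNNNGC, was in neither window and is in 23.9% of all windows. HMOX2, with 2 windows in the table, had the GATA factor pattern in 1 of them. A match is a description of the letters, and the absence of one says only that these letters are not in this window.

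BLVRB, the NADPH-dependent flavin and biliverdin IX beta reductase, is encoded on chromosome 19 and had between 63 and 650 counts in a library. With siGATA1-1 at 25 nM it measured 1084, 1265.5, 1097 and 922 CPM in replicates 1 to 4. With siNC-1 at 25 nM it measured 1714, 1973, 1590 and 1306 CPM, and with siNC-2 at 25 nM 2538, 1758, 1626 and 1476 CPM. All 4 siGATA1-1 libraries were thus below all 8 controls of their dose. The highest control value, 2538 CPM, came from the library with the fewest counts (88290). The means were 1092 ± 140 CPM (SD, n = 4) with siGATA1-1 and 1748 ± 375 CPM (SD, n = 8) in the controls. The log2 fold change was -0.66 (SE 0.13, edgeR adjusted p = 3.67e-04), a fall of 36.8% (95% interval 24.9% to 46.9%). Without the shallowest control library, replicate 1 of siNC-2 at 25 nM, it was -0.58 (SE 0.11, edgeR adjusted p = 6.22e-04).

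With siGATA1-2 at 6.25 nM BLVRB measured 797, 1161, 657 and 908 CPM in replicates 1 to 4. With siNC-1 at this dose it measured 1664, 1791, 1546 and 1368 CPM in replicates 5 to 8, and with siNC-2 1444, 1752, 1616 and 1533 CPM. Here too all 4 knockdown libraries were below all 8 controls. The means were 881 ± 214 CPM (SD, n = 4) and 1589 ± 146 CPM (SD, n = 8). The log2 fold change was -0.83 (SE 0.13, edgeR adjusted p = 2.67e-06), a fall of 43.8% (95% interval 32.6% to 53.1%).

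**Figure D1:**
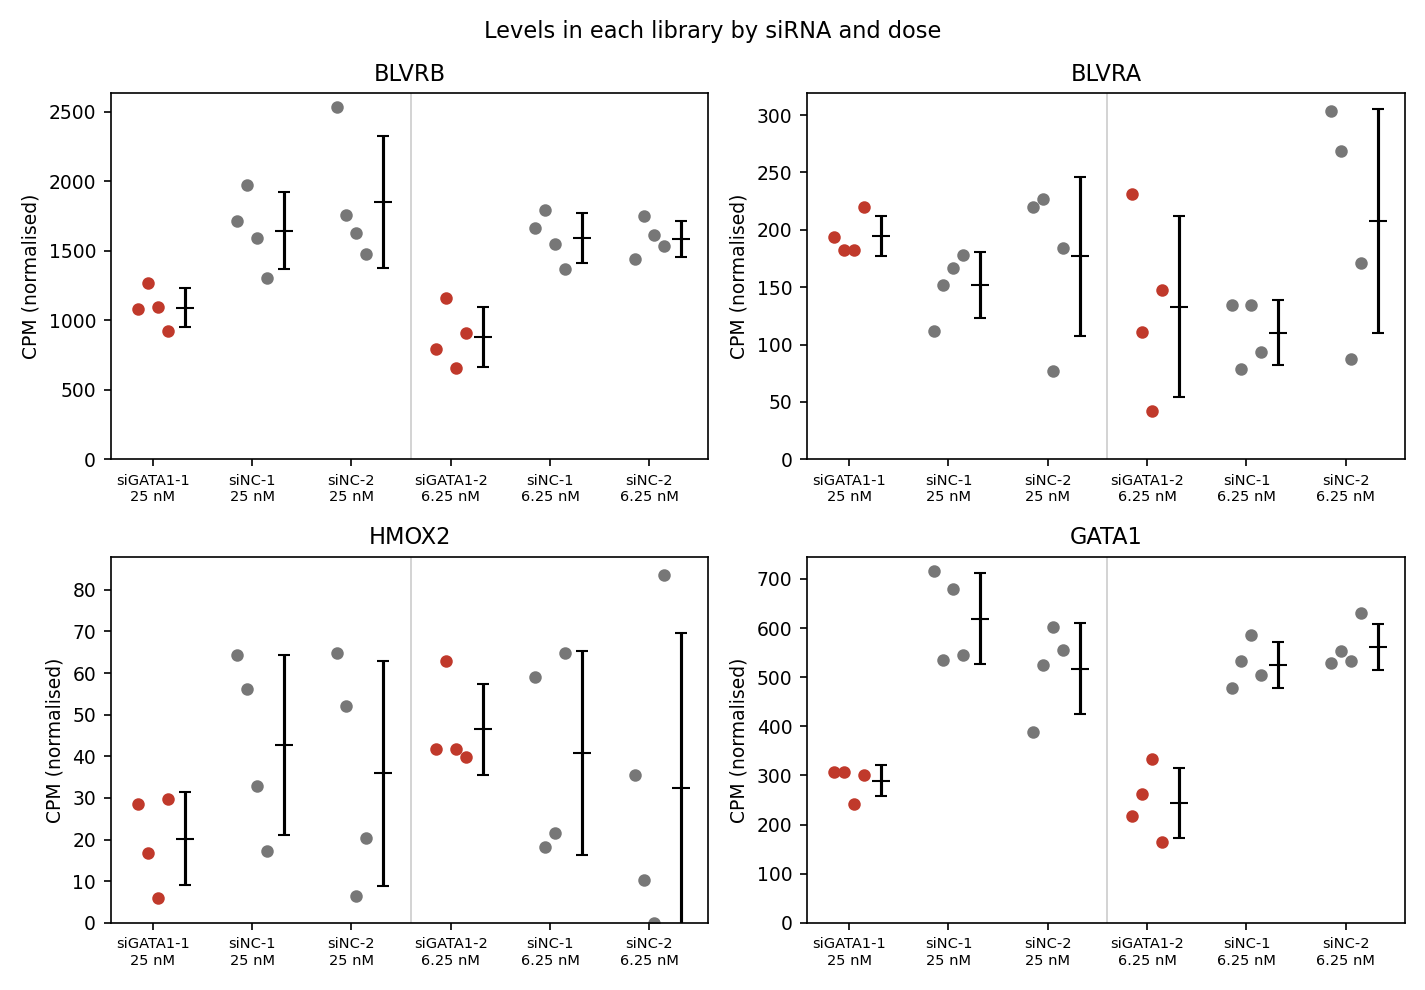
CPM (vertical axes, linear, from 0) of BLVRB, BLVRA, HMOX2 and the targeted gene GATA1 in each of the 24 libraries by siRNA and dose, with red points for GATA1 siRNAs, grey points for non-targeting siRNAs and black marks for group mean and SD, n = 4 (bars are cut at 0). BLVRB and GATA1 are lower in every red group than in the grey groups of the same dose, while BLVRA and HMOX2 with each GATA1 siRNA overlap the 8 pooled controls of the dose.

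Tests on single values gave the same calls for BLVRB. An exact two-sided permutation test of the mean CPM over all choices of 4 of 12 libraries gave p = 0.00606 at 25 nM (0.0162 adjusted over the 8 permutation tests made). At 6.25 nM it gave p = 0.00202, the smallest value this exact test can give (0.0162 adjusted). Averaged over both siRNAs, BLVRB changed by -0.75 on the log2 scale (SE 0.09, edgeR adjusted p = 4.88e-10), a fall of 40.4% (95% interval 32.5% to 47.4%). In this comparison 4.48% of all tested genes were called, and BLVRB was 12th of 6738 genes in order of p. Its size was close to the middle of the 127 genes called lower, whose median was -0.76, and 68 of them fell further. In bulk RNA, fewer cells that express a gene and less of its RNA per cell cannot be told apart.

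The difference between the effects of the 2 siRNAs on BLVRB was -0.17 (siGATA1-2 minus siGATA1-1, log2 scale, SE 0.18, 95% interval -0.52 to 0.18). Without 1 library it ranged from -0.33 (without siGATA1-2 replicate 2) to -0.060 (without siGATA1-2 replicate 3), and with all 16 controls it was -0.29. It was not called (edgeR adjusted p = 0.993), and the interval runs from a level relative to controls that is 30.4% lower with siGATA1-2 than with siGATA1-1 to one above it. No gene was called in this comparison (0% of 6738 genes). In edgeR 333 had an unadjusted p under 0.05, where chance alone would give about 336.9. DESeq2 had 388 and limma voom 385, and both also called 0 after adjustment.

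BLVRB was not called between control groups. Between siNC-1 and siNC-2 the log2 difference was -0.15 at 25 nM (SE 0.14, 95% interval -0.43 to 0.13) and 0.0042 at 6.25 nM (SE 0.14, 95% interval -0.28 to 0.29). Between 25 and 6.25 nM in the controls it was 0.12 (SE 0.10, 95% interval -0.08 to 0.32, edgeR adjusted p = 0.649), where 1.41% of all tested genes were called. From low to high, the group means were 881 CPM with siGATA1-2, 1092 with siGATA1-1, 1586 with siNC-2 at 6.25 nM, 1592 with siNC-1 at 6.25 nM, 1646 with siNC-1 at 25 nM and 1850 with siNC-2 at 25 nM. Neighbours in this order had overlapping ranges except siGATA1-1 and siNC-2 at 6.25 nM. The highest knockdown library (1265.5 CPM) and the lowest control library (1306 CPM) lay close together.

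Erythroid and myeloid markers also changed with the GATA1 siRNAs. In the mean effect 4.48% of all tested genes were called, in either direction. Of 18 K562 erythroid markers 11 fell in the mean effect and 1 rose (RHAG, 0.31, SE 0.10, named after its value was seen). The 18 and the 11 include GATA1, the target of the siRNAs, whose fall is set by the design. The median log2 fold change of the list was -0.62, where the median of all tested genes was -0.0029. HBZ (-1.28, SE 0.10), HBG1 (-0.66, SE 0.07), HBA1 (-0.84, SE 0.09), which encode globins, and GATA1 itself (-1.08, SE 0.12) had the smallest p-values among the 12 called. Of 13 myeloid markers 6 were tested and 3 rose: SPI1, which encodes PU.1 (0.95, SE 0.14), TYROBP, a myeloid adaptor (1.11, SE 0.18), and LYZ, lysozyme (0.51, SE 0.16). The summed level of all 13 myeloid markers was 1005 to 1403 CPM with siGATA1-1 against 728 to 1000.1 in its controls. With siGATA1-2 it was 1198 to 1771 CPM against 629 to 939. The myeloid granule genes MPO and ELANE had 0 counts in all libraries. Of 8 lymphoid markers 1 was tested and not called; CD8A had 0 counts throughout. The summed lymphoid level was 417 to 554 CPM with siGATA1-1 against 316 to 622 in its controls, and 344 to 427 with siGATA1-2 against 204 to 485. Of 8 epithelial and fibroblast markers 4 were tested, and EPCAM fell (-0.91, SE 0.22). The part of these changes in the fall of BLVRB was not tested.

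BLVRA, the reductase of biliverdin IX alpha, is encoded on chromosome 7 and was not called with either siRNA. It had between 4 and 82 counts in a library, so each value carries a large counting error. With siGATA1-1 at 25 nM it measured 193, 182, 183 and 220 CPM. With siNC-1 at this dose it measured 112, 152, 167 and 178 CPM, and with siNC-2 it measured 220, 227, 76.8 and 184 CPM. The siGATA1-1 values lay above all siNC-1 values but inside the range of siNC-2. The log2 fold change against both controls was 0.25 (SE 0.24, 95% interval -0.24 to 0.73, edgeR adjusted p = 0.973), and an exact permutation test of the mean CPM gave p = 0.291.

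With siGATA1-2 at 6.25 nM BLVRA ranged from 41.7 CPM, in replicate 3 with 4 counts, to 232 CPM in replicate 1. With siNC-1 at 6.25 nM it measured 134, 78.6, 134 and 93.6 CPM, and with siNC-2 304, 269, 87.6 and 171 CPM. The lowest knockdown value was below all controls, and the other 3 lay inside their range. The log2 fold change was -0.11 (SE 0.28, 95% interval -0.66 to 0.44, edgeR adjusted p = 0.888), and averaged over both siRNAs it was 0.07 (SE 0.18, 95% interval -0.30 to 0.43). With both controls, the lower ends of the 3 BLVRA intervals were -0.24, -0.66 and -0.30. They lay above the BLVRB estimates in the same comparisons (-0.66, -0.83 and -0.75). With siGATA1-2 the BLVRA and BLVRB intervals overlapped. Against siNC-2 alone the BLVRA change with siGATA1-2 was -0.59 (SE 0.31), and against siNC-1 alone 0.36 (SE 0.33). Without siGATA1-2 replicate 1, against both controls, it was -0.51 (SE 0.32). With siGATA1-2 this order thus depended on the control and on 1 library.

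BLVRA was not called between the 2 control siRNAs. At 6.25 nM siNC-1 was below siNC-2 by a log2 difference of -0.96 (SE 0.31, 95% interval -1.57 to -0.34), with an unadjusted p of 0.00267 and an edgeR adjusted p of 0.999. No gene was called between the control siRNAs at either dose (0% each), and DESeq2 and limma voom called 0 as well. In edgeR 203 genes had an unadjusted p under 0.05 at 6.25 nM and 86 at 25 nM, where chance alone would give about 336.9. At 25 nM the BLVRA difference between siNC-1 and siNC-2 was -0.21 (SE 0.29). With siNC-1 alone as the control, BLVRA was higher with siGATA1-1 by 42.4 CPM (exact permutation test, p = 0.0286, the smallest that 4 against 4 libraries allow), and edgeR did not call it. The group means of BLVRA ran from 110 CPM (siNC-1 at 6.25 nM) through 133 (siGATA1-2), 152 (siNC-1 at 25 nM), 177 (siNC-2 at 25 nM) and 195 (siGATA1-1) to 208 (siNC-2 at 6.25 nM). The ranges of all neighbours in this order overlapped.

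**Figure D2:**
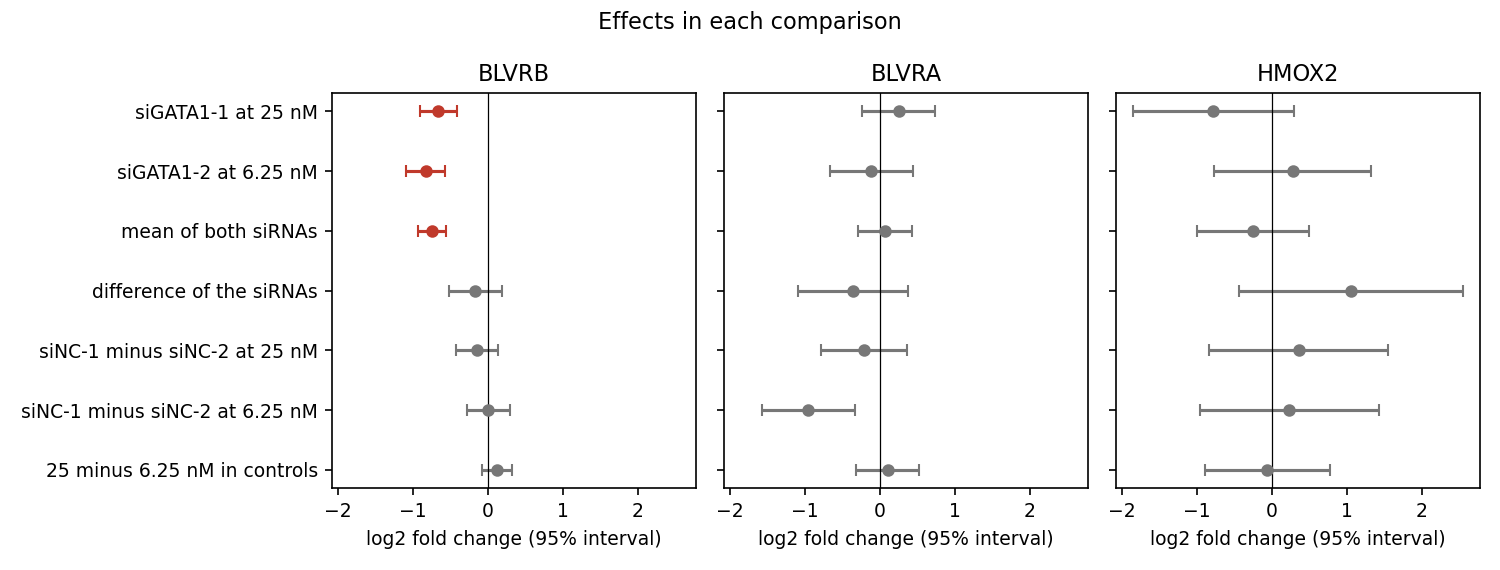
Log2 fold change (horizontal, with its 95% interval) of BLVRB, BLVRA and HMOX2 in the 7 comparisons, in red where called at an adjusted p under 0.05 and in grey otherwise. BLVRB is called with each GATA1 siRNA and in their mean (-0.66, -0.83 and -0.75), and the intervals of HMOX2 are the widest of the 3 genes.

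The share of BLVRB among the counts of both reductases needs no scaling between libraries. At 25 nM it was 84.7% ± 2.84 with siGATA1-1 (SD, n = 4) and 91.3% ± 2.71 in the controls (SD, n = 8). The siGATA1-1 libraries ran from 80.7% (95% Wilson interval 76.5% to 84.4%, 384 counts of the pair) to 87.4% (84.3% to 90.0%, 517 counts), and the controls from 88.0% to 95.5%, with no overlap. The difference was -6.60 percentage points (exact two-sided permutation test, p = 0.00404, 0.0162 adjusted over the 8 permutation tests). At 6.25 nM the share was 87.2% ± 7.28 with siGATA1-2 (SD, n = 4) against 91.0% ± 4.44 (SD, n = 8), a difference of -3.82 points (exact permutation test, p = 0.285, 0.388 adjusted). Without 1 library this difference ranged from -6.09 points (without siGATA1-2 replicate 3) to -0.58 points (without siGATA1-2 replicate 1). It was -6.29 points against siNC-1 alone and -1.34 against siNC-2 alone. The siGATA1-2 libraries ran from 77.5% (71.5% to 82.5%, 222 counts) to 94.0% (85.6% to 97.7%, 67 counts), inside and below the control range of 82.6% to 95.8%. BLVRB thus moved relative to BLVRA at 25 nM, and at 6.25 nM no such shift was detectable at this depth. The intervals cover counting error only, and reads of the same molecule may have been counted more than 1 time.

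**Figure D3:**
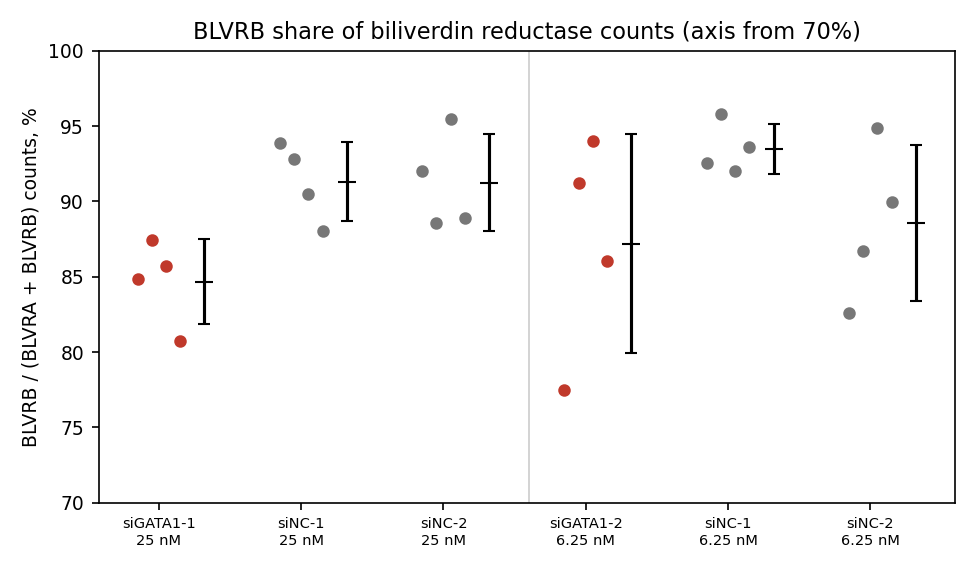
Counts of BLVRB as a percentage of the counts of BLVRA and BLVRB together (vertical, axis from 70%) in each library, with red points for GATA1 siRNAs, grey points for non-targeting siRNAs and black marks for group mean and SD, n = 4. The siGATA1-1 libraries lie between 80.7% and 87.4%, below all 8 controls at 25 nM, and the siGATA1-2 libraries spread from 77.5% to 94.0%.

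HMOX2, the constitutive heme oxygenase on chromosome 16, was near the lower limit of measurement, with 218 counts in all and at most 23 in a library. With siGATA1-1 at 25 nM it measured 28.5, 16.8, 5.90 and 29.7 CPM. In the 8 controls at 25 nM it ranged from 6.40 to 64.8 CPM with a median of 42.4. The means were 20.2 ± 11.2 (SD, n = 4) and 39.3 ± 23.0 CPM (SD, n = 8), and the ranges overlapped. The log2 fold change was -0.78 (SE 0.54, 95% interval -1.86 to 0.29, edgeR adjusted p = 0.921). With siGATA1-2 at 6.25 nM it measured 41.7, 62.9, 41.7 and 39.7 CPM, inside the range of its 8 controls of 0 to 83.5 CPM. There the log2 fold change was 0.27 (SE 0.53, 95% interval -0.77 to 1.32, edgeR adjusted p = 0.864), and it ranged from 0.078 (without siGATA1-2 replicate 2) to 0.77 (without siNC-2 6.25 nM replicate 8) when 1 library was left out.

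The difference between the 2 effects on HMOX2 was 1.05 (SE 0.75, 95% interval -0.44 to 2.55, edgeR adjusted p = 0.989). Averaged over both siRNAs its log2 fold change was -0.25 (SE 0.38, 95% interval -1.0 to 0.49). With siGATA1-1 the interval of HMOX2 included both 0 and a fall larger than that of BLVRB, so a fall of that size was not detectable at this depth. With siGATA1-2 the lower end of the HMOX2 interval (-0.77) lay just above the BLVRB estimate (-0.83). The group means ran from 20.2 CPM (siGATA1-1) through 32.3 and 35.9 (siNC-2 at 6.25 and at 25 nM) and 40.9 and 42.7 (siNC-1 at 6.25 and at 25 nM) to 46.5 CPM (siGATA1-2), and all neighbours overlapped. In GENCODE 29 HMOX2 overlaps NMRAL1, which lies on the other strand and had 396 counts. The sources used here do not say whether counting used strand, so reads of HMOX2 and NMRAL1 may not be told apart. In the same annotation BLVRA overlaps the processed pseudogene AC005189.1 on the same strand. BLVRB overlaps RF00017 on the other strand. Neither AC005189.1 nor RF00017 was among the symbols counted.

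HMOX1, the inducible heme oxygenase on chromosome 22, was listed with 0 counts in all 24 libraries. Of 27311 symbols, 7667 were at 0 throughout, and none of the 4 other names that RefSeq gives HMOX1 was among the symbols. The sources used here do not say whether the annotation used for counting held HMOX1 in a form that reads could be assigned to, so the limits that follow hold only if it did. Over the 6346793 counts of all libraries, 0 counts allow up to 3, or 0.473 CPM of unscaled counts. In the shallowest and deepest library alone the limit was 34.0 and 6.34 CPM. Because HMOX1 was 0 in knockdown and control libraries alike, no fold change and no share of HMOX1 among heme oxygenase counts can be given.

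The regulators and co-targets of HMOX1 were measured. Of 11 genes on the list of BACH1 and NRF2 regulators 9 were tested, and none was called in edgeR with either siRNA or in the mean effect (median log2 fold change 0.09). Of 22 NRF2 and BACH1 target genes 17 were tested, and 1 fell in the mean effect: TXN, which encodes thioredoxin (-0.45, SE 0.12, edgeR adjusted p = 0.017). In the mean effect 4.48% of all tested genes were called, so 1 call among 17 is close to the general rate. The median of the 17 target genes was 8.25e-06, against -0.0029 over all tested genes. Of 14 enzymes of NADPH supply and red cell redox defence 11 were tested and none was called (median -0.12).

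Heme synthesis is the pathway that precedes degradation. All 8 of its enzymes on the list analysed here were tested. In the mean effect, where 4.48% of all tested genes were called, 3 of them fell, with a list median of -0.54. They were ALAS2, which starts the pathway in erythroid cells (-0.86, SE 0.13), PPOX, which makes protoporphyrin (-0.77, SE 0.19), and CPOX, which acts just before it (-0.68, SE 0.19). Their edgeR adjusted p-values lay between 1.89e-07 (ALAS2) and 0.0215 (CPOX). Of 14 genes of heme transport and binding 8 were tested and none was called (median -0.20). Of 11 genes that supply electrons to heme oxygenase or handle bilirubin later 6 were tested and none was called (median -0.14). These lists were chosen with earlier results of these data known, and their medians are descriptions.

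**Figure D4:**
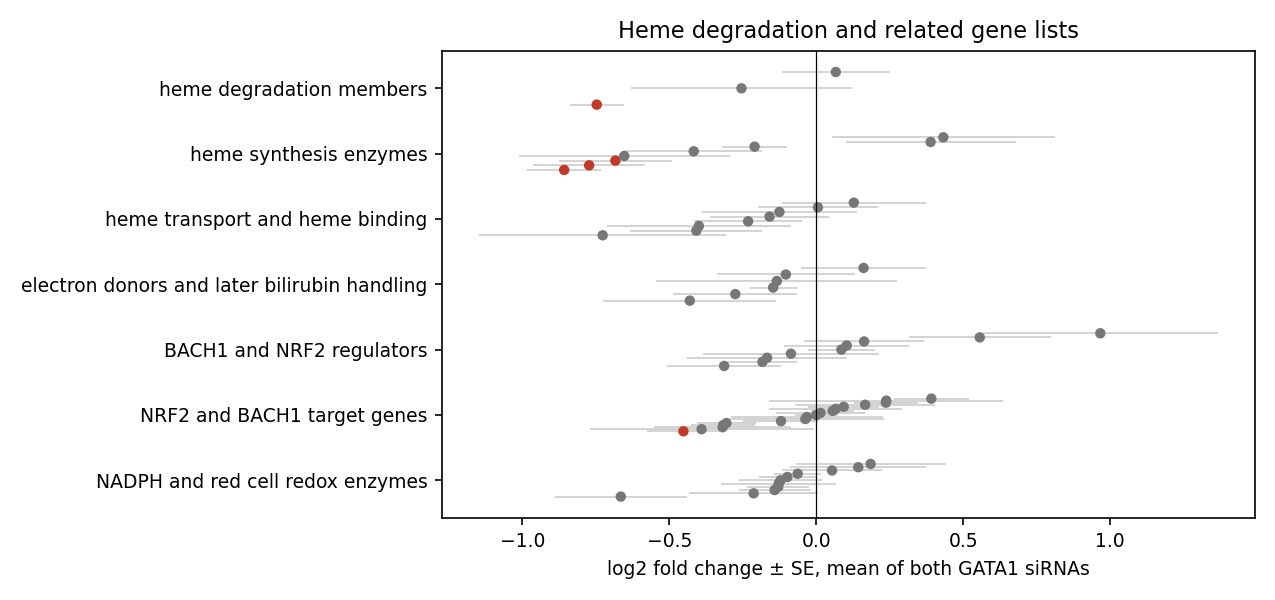
Mean effect of both GATA1 siRNAs (horizontal axis, log2 fold change with its SE as a bar) on each tested gene of 7 lists, in red where called at an adjusted p under 0.05 and in grey otherwise. BLVRB among the heme degradation genes, 3 of 8 heme synthesis enzymes and TXN are called, and each of these fell. Over all tested genes 4.48% were called.

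The genes whose levels were most like those of BLVRB over the 24 libraries were sought among 5302 tested genes with a mean of at least 10 counts. The 5 highest Pearson correlations of log2 CPM were those of HBE1, the embryonic epsilon globin (r = 0.91), HBA1, an alpha globin (0.88), FAM178B (0.88), ALAS2 (0.88) and PKLR, the pyruvate kinase of liver and red cells (0.87). These libraries share the knockdown, so the values also reflect the difference between groups. After each group's mean was removed, r was 0.81 for HBE1, 0.50 for HBA1, 0.35 for FAM178B, 0.56 for ALAS2 and 0.57 for PKLR. The within-group values remove group means only. BLVRB and HBE1 were each highest in the library numbered 2 or 6 in 5 of 6 groups, and lowest in the library numbered 4 or 8 in 4 (BLVRB) and 5 (HBE1) of them. The part of the replicate number in these correlations was not tested.

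These 5 genes were picked for following BLVRB over libraries that include the knockdowns, so a shared fall is partly set by that choice. All 5 genes fell in the mean effect, with log2 fold changes of -0.49 (HBE1, SE 0.07), -0.84 (HBA1, SE 0.09), -1.43 (FAM178B, SE 0.09), -0.86 (ALAS2, SE 0.13) and -1.44 (PKLR, SE 0.21). HBE1 measured 2324 ± 276 CPM with siGATA1-1 against 2936 ± 264 in its controls, and 2012 ± 271 with siGATA1-2 (SD, n = 4) against 3170 ± 292 (SD, n = 8). GATA1 itself had an r of 0.70 with BLVRB over the 24 libraries and of -0.37 within groups, and KLF1, an erythroid Krüppel-like factor, had 0.75 and 0.05. For BLVRA the closest gene was ATL3 (r = 0.86, 0.84 within groups), followed by TAB2, CFAP36, SPG7 and IGSF8 at 0.71 to 0.72, none of which was called in the mean effect. For HMOX2 the 5 closest genes (ILKAP, ATP5A1, OGFOD3, PELO and XRN2) had r between 0.65 and 0.74, at counts too sparse to read a pattern from. The lists of closest genes of the 3 members shared no gene, and with lists this short that says little about how the members relate.

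**Figure D5:**
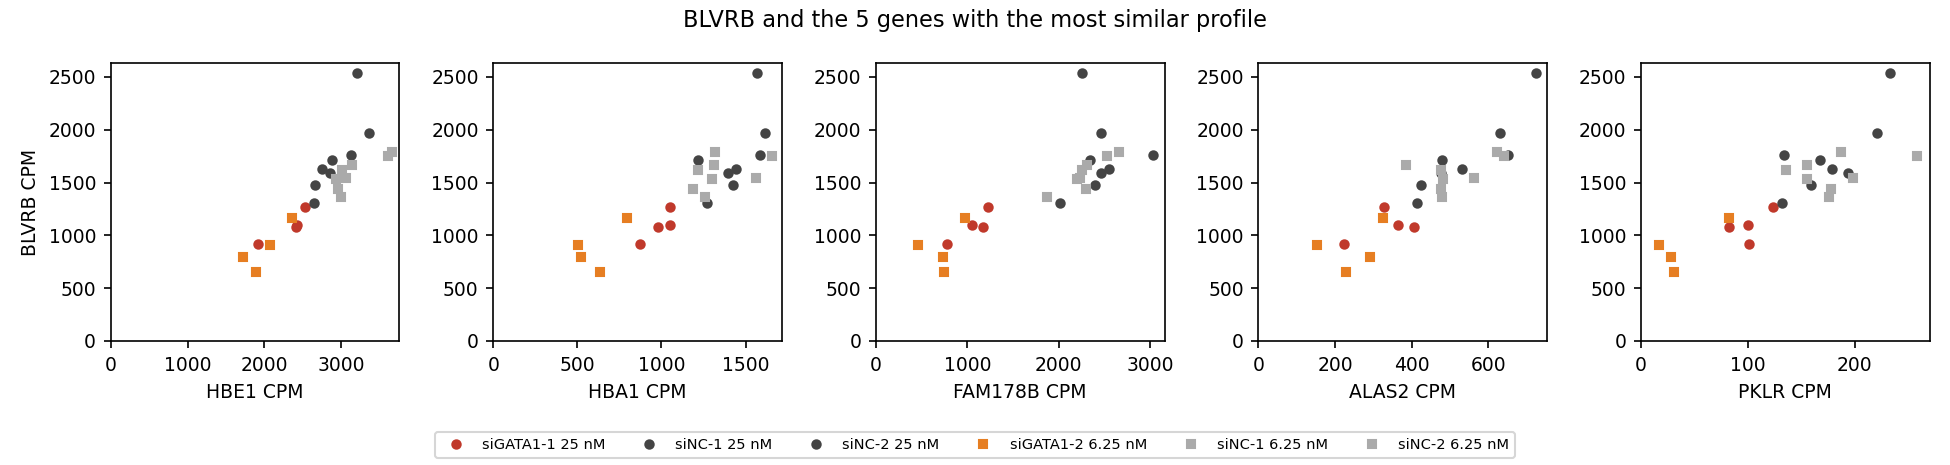
BLVRB (vertical, CPM from 0) against each of the 5 genes with the most similar profile (horizontal, CPM from 0) in the 24 libraries, with siGATA1-1 in red, siGATA1-2 in orange, controls at 25 nM in dark grey and at 6.25 nM in light grey. The knockdown libraries lie at the lower left of each panel, and BLVRB and HBE1 (r = 0.91) form the tightest band.

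No neighbouring gene on the chromosomes was called in the mean effect, where 4.48% of all tested genes were called. With so few genes this is the usual outcome and does not show that they were unchanged. The nearest tested genes by RefSeq order were SERTAD3 (-0.48, SE 0.25, adjusted p = 0.327) on one side and SHKBP1 (0.57, SE 0.25, adjusted p = 0.213) on the other, and edgeR called neither in the mean effect. The neighbours of BLVRA (COA1 and POLD2), of HMOX2 (NMRAL1 and UBALD1) and of HMOX1 (TOM1 and MCM5) were not called either.

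The spread within groups differed between the members. Relative to counting error, the variance between replicates was 9.08 times as large for BLVRB, 3.74 times for BLVRA and 3.38 times for HMOX2 (18 residual degrees of freedom), against a median of 2.42 over all tested genes. This ratio grows with the count. The biological coefficient of variation in edgeR, which removes counting error, was 0.15 for BLVRB, 0.24 for BLVRA and 0.44 for HMOX2.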

How the data were processed

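The authors deposited 1 table of raw counts per gene symbol for 24 libraries, with no normalization per the values. STAR 2.5.6b and the build hg19 are named in the submitters' processing notes. The sources used here do not name the annotation or the program that counted reads, and do not say whether strand was used or reads of 1 molecule were collapsed. All 24 columns matched a sample title. Per the labels' protocols, 200000 cells were transfected and 10000 were lysed. The pairs of replicates (36 in all) differed by 1.86 to 3.35 times the sampling noise, so none was taken for a copy.

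All 6 groups entered 1 model with a mean for each group, in edgeR 4.0.16 (R 4.3.3), with TMM normalization, filterByExpr (minimum count 10, total 15) and the robust quasi-likelihood test. This left 6738 genes with 93.7% of the counts. The contrasts set each GATA1 siRNA against the mean of both controls of its dose. Adjusted p-values are Benjamini-Hochberg values over all tested genes, called under 0.05. CPM are counts scaled by the normalized library size. Single values were tested by exact permutation. The script was tested on simulated data. DESeq2 1.42.0, limma 3.58.1, other filters, other controls and leaving out each library were tried as alternatives. The members and lists were chosen with earlier results of these data known. Named genes were the 4 members, GATA1, up to 4 called genes per list, the 5 genes most like each member (log2 CPM, prior count 2) and the nearest tested neighbours. KLF1 was named after its values were seen. RefSeq held promoter windows for 3 members (BLVRA, BLVRB and HMOX2). The planned share of HMOX1 among heme oxygenase counts was not computed, since HMOX1 had 0 counts. From the lists 1 gene was left out after the values were seen, for reasons unrelated to them, and is not reported here.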

Additional observations from a re-analysis of the deposited data

Results flagged for a closer look

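HMOX2 in replicate 2 of siGATA1-2 measured 62.9 CPM, apart from the other 3 libraries of its group at 39.7 to 41.7 CPM. The gap was 0.915 of the group's range, above Dixon's 95% critical value for 4 samples. The 3 tested members and the BLVRB share were examined in 6 groups each, 24 in all, and chance alone sets a library apart in about 1 of 20 groups.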

How the results depend on the processing

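BLVRB kept its direction and its call under all alternatives run: its log2 fold change lay between -0.74 and -0.59 with siGATA1-1 (10 alternatives), -0.89 and -0.80 with siGATA1-2 (9) and -0.78 and -0.70 in the mean effect (8), and over the 24 fits without 1 library between -0.74 and -0.58, -0.996 and -0.72, and -0.83 and -0.69. BLVRA and HMOX2 were not called by any fit across all genes. With siNC-1 alone, BLVRA changed by 0.36 with siGATA1-2, by 0.011 in the difference of the siRNAs and by 22.9 CPM at 6.25 nM, all of reversed sign, and by 42.4 CPM at 25 nM (exact permutation test, p = 0.0286). With siNC-2 alone BLVRA was reversed in the mean effect (-0.23), and with siGATA1-2 it changed by -0.59. HMOX2 was reversed in the mean effect with limma voom (0.024), and BLVRB between the control siRNAs at 6.25 nM with limma voom (-0.0072) and with a minimum count of 20 (-0.0013). The cause was not tested. Genes called with siGATA1-1 (49) were 80 with only the groups compared, 117 with all 16 controls, 31 with siNC-1 alone and 27 with siNC-2 alone. With siGATA1-2 (204) they were 127 when other groups were left out of the model and 99 against siNC-1, and in the mean effect (302) 177 with siNC-1 alone and 184 with siNC-2 alone.

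Without 1 library each, genes called ranged from 20 (without siGATA1-1 replicate 4) to 53 with siGATA1-1, and from 116 (without siGATA1-2 replicate 4) to 307 (without its replicate 2) with siGATA1-2. BLVRA ranged from -0.51 to 0.11 with siGATA1-2, from -0.13 to 0.18 in the mean effect, from -58.8 to 4.56 CPM at 6.25 nM and from -0.0028 to 0.22 between control doses. BLVRB ranged from -0.24 to 0.022 between the control siRNAs at 25 nM and from -0.066 to 0.077 at 6.25 nM. HMOX2 ranged from -0.36 to -0.0088 (without siNC-2 6.25 nM replicate 8) in the mean effect, from -0.11 to 1.22 between the control siRNAs at 6.25 nM and from -0.26 to 0.44 between control doses.

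Replicate numbers are shared by siGATA1-1, siGATA1-2 and the 25 nM controls. Among siGATA1-1 and the 25 nM controls, deviations from the group means correlated above 0.1 in 2 of 12 same-numbered pairs. The same held for 2 of 36 differently numbered pairs, and the median r was 0.0069 and -0.0036. The numbers were not taken as pairs, though a shared effect of the number on some genes is not excluded. With the replicate number as a block, BLVRB changed by -0.66 (SE 0.11, edgeR adjusted p = 5.27e-05), BLVRA by 0.23 and HMOX2 by -0.78 with siGATA1-1, and 50 genes were called. The siGATA1-2 libraries and the 6.25 nM controls share no number. In the block fit the siGATA1-2 libraries shared block terms with the 25 nM libraries of the same number. The 6.25 nM controls had block terms of their own. Only the siGATA1-1 effect was tested with the block. Only the groups compared gives no value for the mean or the difference, which use all 6 groups, and a minimum count of 20 removed HMOX2. Depth limits HMOX2 and BLVRA most, at a mean of 9.08 and 42.3 counts per library.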

Other observations

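BLVRB was highest in the library numbered 2 or 6 in 5 of the 6 groups and lowest in the library numbered 4 or 8 in 4 of them. The same counts were 5 and 5 for HBE1, 5 and 4 for HBA1, 5 and 5 for FAM178B, 4 and 4 for ALAS2 and 4 and 2 for PKLR. These genes were picked for following BLVRB over the same libraries, so a shared order is partly set by that choice. GATA1 was highest in number 2 or 6 in 1 group and lowest in number 4 or 8 in 1, with 1 and 0 for BLVRA and 1 and 2 for HMOX2. This was noticed after the values were seen and was not tested, and the labels do not say what a replicate number stands for.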
